A study of Mus musculus with 22 samples.

Results

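The regions described here are the ATAC-seq peaks that were listed only after TERRA knockdown in mouse embryonic stem cells. A region was a member when a peak of TERRA KD replicate 1 shared at least 1 bp with a peak of TERRA KD replicate 2 and touched no peak of either scramble KD replicate. Of the 86535 ATAC peaks of TERRA KD replicate 1, 4713 were members, or 5.45%. The members were chosen by the presence and overlap of these ATAC peaks, so their ATAC values are given as a description and were not tested. The same rule run in the opposite direction, with peaks in both scramble KD lists and neither TERRA KD list, gave 2630 of the 78571 peaks of scramble KD replicate 1, or 3.35%, called lost sites below. Another 56314 peaks of TERRA KD replicate 1 overlapped peaks in the other 3 lists and are called shared sites.

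All 16 libraries came from XX hybrid embryonic stem cells of a cross between strains, CAST/Ei x 129/Sv/Jae, which had been separated from their feeder cells. The cells received a locked nucleic acid (LNA) gapmer, either against TERRA or with a scrambled sequence, and were collected after 12 h. No group carried a further allele or agent, and the gapmer targets an RNA without deleting a locus. ATAC-seq and ChIP-seq for ATRX, for H3K9me3 and for G-quadruplexes (G4) each had 2 replicates per group.

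TERRA is the long noncoding RNA transcribed from telomeres and from telomere-like repeats within chromosomes, and it also binds chromatin away from its own loci. ATRX is a chromatin remodeler that deposits the histone variant H3.3 with DAXX at telomeres and other repeats, H3K9me3 is the histone mark of heterochromatin found on many repeats in embryonic stem cells, and G-quadruplexes are structures that guanine-rich strands can fold into. In ATAC-seq a transposase cuts accessible DNA, so a peak marks open chromatin, typically at promoters, enhancers and insulator sites.

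The sequences below show the kinds of member that the results turn on. Each is the 201 bp around the ATAC summit of a member, read from the plus strand of GRCm38.p6 (RefSeq), and each member is named by the gene with the nearest transcription start site (TSS).
The first member, nearest Kcnf1, was the only 1 with ATRX peaks in both TERRA KD lists and neither scramble KD list, H3K9me3 in all 4 lists, and G4 in both scramble KD lists and neither TERRA KD list. Capitals mark its 9 CG dinucleotides.
Kcnf1 member, chr12:17123088-17123288: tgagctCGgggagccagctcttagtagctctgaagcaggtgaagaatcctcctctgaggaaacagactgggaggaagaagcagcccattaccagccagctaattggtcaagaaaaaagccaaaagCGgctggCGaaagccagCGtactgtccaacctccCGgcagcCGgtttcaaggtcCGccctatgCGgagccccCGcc
The other 4 are members with high ATAC ranks or at a promoter, and show non-telomeric sequence. Capitals mark a CTCF motif in the Ppp1r32 window, G4 motifs in the Wnt9a and Egln2 windows, and, in the Itga5 window, an octamer motif, the site bound by POU factors such as OCT4. CTCF is the insulator protein that anchors chromatin loops.
Ppp1r32 member, chr19:10482945-10483145: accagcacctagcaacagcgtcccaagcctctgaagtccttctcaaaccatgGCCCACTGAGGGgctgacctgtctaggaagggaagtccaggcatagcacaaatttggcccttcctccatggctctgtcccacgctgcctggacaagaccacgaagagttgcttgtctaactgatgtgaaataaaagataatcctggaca
Wnt9a member, chr11:59336418-59336618: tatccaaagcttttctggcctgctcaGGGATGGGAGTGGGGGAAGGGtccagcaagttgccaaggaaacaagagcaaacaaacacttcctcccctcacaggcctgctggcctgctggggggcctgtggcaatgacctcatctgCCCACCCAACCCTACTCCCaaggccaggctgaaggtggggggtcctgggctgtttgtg
Itga5 member, chr15:103388843-103389043: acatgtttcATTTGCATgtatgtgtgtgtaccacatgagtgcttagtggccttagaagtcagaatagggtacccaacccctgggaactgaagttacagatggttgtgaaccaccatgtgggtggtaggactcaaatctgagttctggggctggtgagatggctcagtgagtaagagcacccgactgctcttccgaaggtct
Egln2 member, chr7:27166120-27166320: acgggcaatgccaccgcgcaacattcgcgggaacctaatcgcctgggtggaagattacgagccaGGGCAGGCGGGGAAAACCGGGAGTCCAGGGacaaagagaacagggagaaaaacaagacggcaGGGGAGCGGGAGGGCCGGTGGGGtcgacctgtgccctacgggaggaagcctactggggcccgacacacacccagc

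The members were mostly short and weak peaks. Their median length was 339 bp (268 to 1244 bp), against 655 bp for shared sites and 339 bp for lost sites. The pileup, the highest number of overlapping fragments under a peak, had a median of 7 in TERRA KD replicate 1 (4 to 44) and of 8 in the replicate 2 partner, against 16 in shared sites and 7 in lost sites. The −log10 p of the peak caller, which sets a peak against its local background, had a median of 4.35 in replicate 1 (2.05 to 17.9) and 4.66 in the partner (2.02 to 99.5). Lost sites had a median of 4.86 and shared sites of 11.4. Of the shared sites, 7.25% had a value at or below the members' median. Members thus ranked low among the open sites of the same library, as lost sites did in theirs.

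Within the members, strength in replicate 1 said little about strength in replicate 2. Across the 4713 members, Pearson's r of the −log10 p between the 2 libraries was 0.17 and Spearman's rho 0.18, a description over regions that share the same libraries. The middle 50% of the members' replicate 1 values spanned only 3.71 to 5.30. No such correlation is given for shared or lost sites, so the low value is not shown to be particular to members. A value of at least 5 in both libraries was reached by 1018 members (21.6%), of at least 7 by 168 and of at least 10 by 7. The rule asks for 1 shared base, and the members shared a median of 268 bp with the partner, or 80.6% of their length, while 3865 shared at least 50%.

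Most members stood some distance from the open sites of control cells. The nearest scramble KD peak was a median of 4177 bp away, within 500 bp for 721 members (15.3%) and within 10000 bp for 3524 (74.8%). For 353 members (7.49%) the replicate 2 partner was a larger peak that itself touched a scramble KD peak, and those partners had a median −log10 p of 6.16. At the edge of the rule, the 113 members whose gap to a scramble KD peak was 1 to 50 bp had a median −log10 p of 4.22 and a median pileup of 7. The 222 replicated peaks that overlapped scramble KD peaks by 1 to 50 bp, and so were not members, had 4.22 and 6. A further 12774 replicated peaks touched a peak of exactly 1 scramble KD list and had a median −log10 p of 5.15. Members near the edge and excluded peaks near the edge therefore had like ATAC values.

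**Figure D1:**
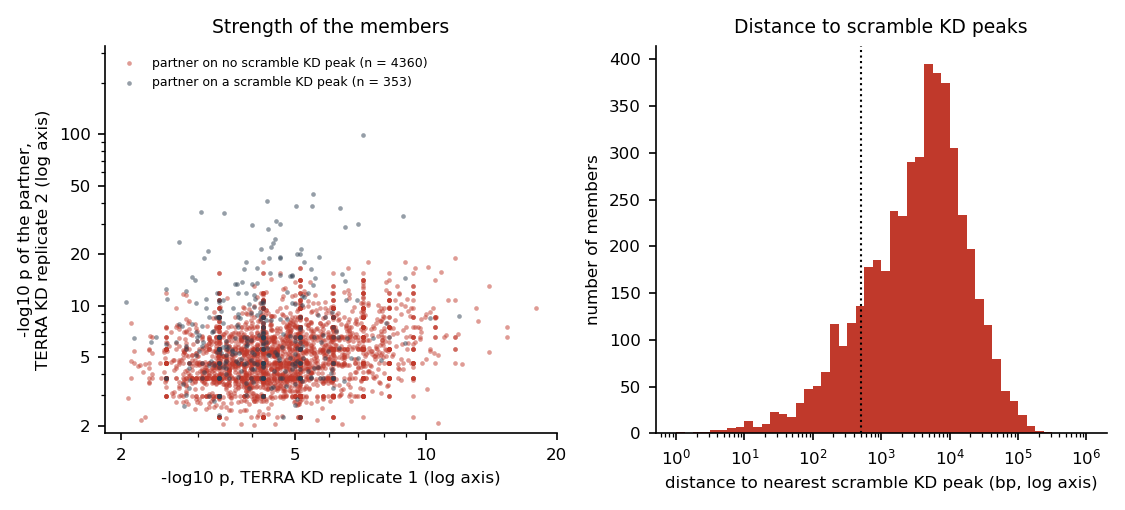
Left, the −log10 p of each member in TERRA KD replicate 1 against that of its partner in replicate 2, both on log axes, with the 353 members whose partner touches a scramble KD peak in dark blue and the other 4360 in red. Right, the number of members by distance to the nearest scramble KD peak in bp on a log axis, with a dotted line at 500 bp and most members between 1000 and 100000 bp.

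Library sizes varied between the groups. The ATAC libraries held 5976014 and 7499296 tags for scramble KD against 6615112 and 7883648 for TERRA KD, with 78571 and 96994 against 86535 and 103911 peaks. The TERRA KD library was the larger of each same-numbered pair, members outnumbered lost sites 1.79 to 1, and the part of library size in that ratio was not tested. The ChIP-seq libraries held 2961038 to 24588605 tags. The H3K9me3 lists split by replicate number, with 26414 and 25490 peaks in the replicates 1 (median lengths 2404 and 3120 bp) and 76213 and 74925 in the replicates 2 (491 and 515 bp). A further pair of lists stood apart in peak number: ATRX in TERRA KD replicate 1, with 41384 peaks from 4104486 tags against 7321 to 21718 in the other ATRX lists, and G4 in scramble KD replicate 2, with 389434 peaks against 140119 to 225024. Of 14 embryonic stem cell marker genes, 13, 13, 14 and 13 had an ATAC peak within 1 kb of the TSS in scramble KD 1 and 2 and TERRA KD 1 and 2. For 10 fibroblast genes, as markers of feeder cells, the counts were 6, 6, 5 and 6, and for 6 two-cell-like markers they were 0 in every library.

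The members lay mainly in introns and between genes. Of the 4705 members on assembled chromosomes (8 lay on contigs), the peak centre fell between genes in 2270 (48.2%), in an intron in 1915 (40.7%), in a coding exon in 213 (4.53%), in another exon in 136 (2.89%) and in a promoter in 171 (3.63%). A promoter here is the stretch from 1000 bp before to 100 bp after a TSS. Shared sites were in promoters in 17.4% of cases and lost sites in 2.82%, and coding exons held 4.28% of shared and 2.51% of lost sites. Within 1 kb of a TSS stood 299 members (6.35%), against 25.4% of shared and 4.57% of lost sites. The median distance to a TSS was 24461 bp for members, 27131 bp for lost sites and 15702 bp for shared sites. By position, members were thus closer to lost sites than to the sites open in every library.

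**Figure D2:**
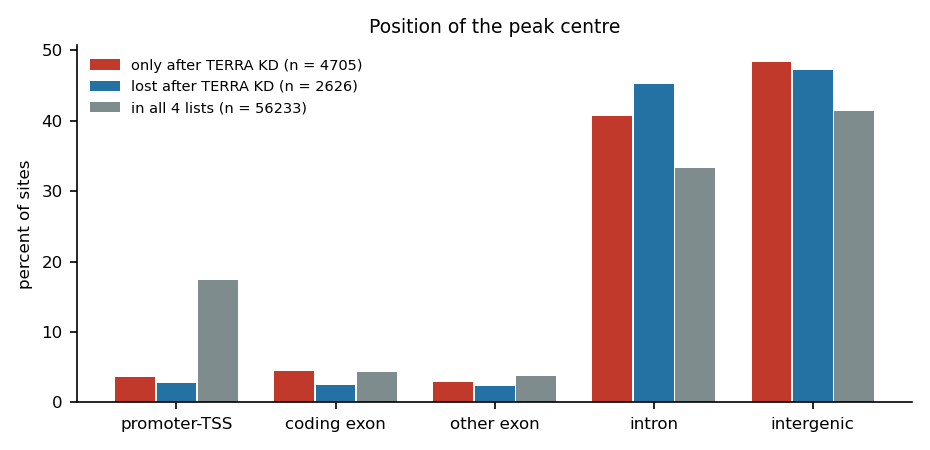
Percent of sites (vertical axis, from 0) by the annotation at the peak centre, for members (red), lost sites (blue) and shared sites (grey). Introns and intergenic DNA held 40.7% and 48.2% of members, while promoters held 3.63% of members and 17.4% of shared sites.

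Members were listed on every chromosome of the assembly. On Y they were 3 of 159 peaks (1.89%). The study describes the cells as XX, so the Y peaks cannot be read as sites of these cells, and their origin was not tested. Among the autosomes and X, the share of TERRA KD replicate 1 peaks that were members ran from 4.70% on X (161 members) to 6.31% on chromosome 5 (343 members), around the background of 5.45%. Chromosome ends held few. Within 1 Mb of the distal end of a chromosome lay 28 members (0.595%), against 32 lost sites (1.22%) and 533 shared sites (0.948%), and within 100 kb lay 2 members (0.0425%), 2 lost sites and 77 shared sites. Members were thus not gathered next to the distal chromosome ends of the assembly.

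A small set of members lay on interstitial telomeric tracts, the runs of TTAGGG within chromosomes. The assembly held 362 tracts of at least 4 unbroken copies, counted without a filter on chromosome ends. Of these, 214 were under an ATAC peak of TERRA KD replicate 1 and 12 under a member. Those 12 tracts belonged to 11 members (0.234%). Shared sites held a tract in 94 cases (0.167%), and all 86412 peaks of TERRA KD replicate 1 on chromosomes in 128 (0.148%). No lost site held 1, and a count of 0 among 2626 sites allows a share of up to 0.114% from counting error alone. These shares are a description, since the summit windows of a library are not replicates.

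The 11 telomeric members carried runs of 7 to 14 copies. The longest stood in an intron of Bbox1, which encodes an enzyme of carnitine synthesis (14 copies, chr2:110293427-110293696, pileup 8 in TERRA KD replicate 1 and 13 in replicate 2). The member with the highest replicate 2 value lay between genes 416505 bp from the lncRNA gene Gm20268 (13 copies, chr1:100738688-100739263, pileup 9 and 16, −log10 p 7.16 and 14.2). Another lay in an intron of Dab2, an adaptor of endocytosis, and nearest the TSS of the lncRNA Gm16311 (9 copies, chr15:6316905-6317178, pileup 9 and 10). In an intron of Sympk, a scaffold of mRNA 3′ end processing, the member had 7 copies, the highest replicate 1 pileup of the set, 14, and a pileup of 11 in replicate 2. The other 7 lay between genes, nearest Gm10677, Slc24a3, 4930406D18Rik, Adcyap1, Tecpr1, Anxa10 and Pros1. The nearest scramble KD peak was 1395 bp (Sympk) to 92021 bp away, with a median of 22375 bp. All 11 sites were therefore over 1 kb from any ATAC peak of control cells.

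ATRX was listed at the telomeric members in both conditions. Scramble KD replicates 1 and 2 listed ATRX on 10 and 7 of the 11, and the TERRA KD replicates on 11 and 9. On the 94 shared sites with a tract, the shares were 67.0%, 70.2%, 81.9% and 74.5% in the same order. Among all 4713 members only 8 had ATRX in all 4 lists, and 6 of these 8 were on tracts. The tract members at Gm20268, Bbox1, Gm16311, Gm10677, 4930406D18Rik and Adcyap1 were those 6. H3K9me3 differed more by replicate number than by condition on these sites, with 2 and 10 of the 11 after scramble KD, against 5 and 10 after TERRA KD. G4 peaks lay on 5 and 1 of the 11 after scramble KD, against 6 and 1 after TERRA KD, although 10 of the 11 windows held a G4 motif, which the TTAGGG repeat itself forms. ATRX was thus listed on most of these tracts in control cells too, where no ATAC peak was listed. Reads of TTAGGG repeats can come from other tracts or from telomeres, so the ATAC and ChIP-seq values at these members are uncertain.

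**Figure D3:**
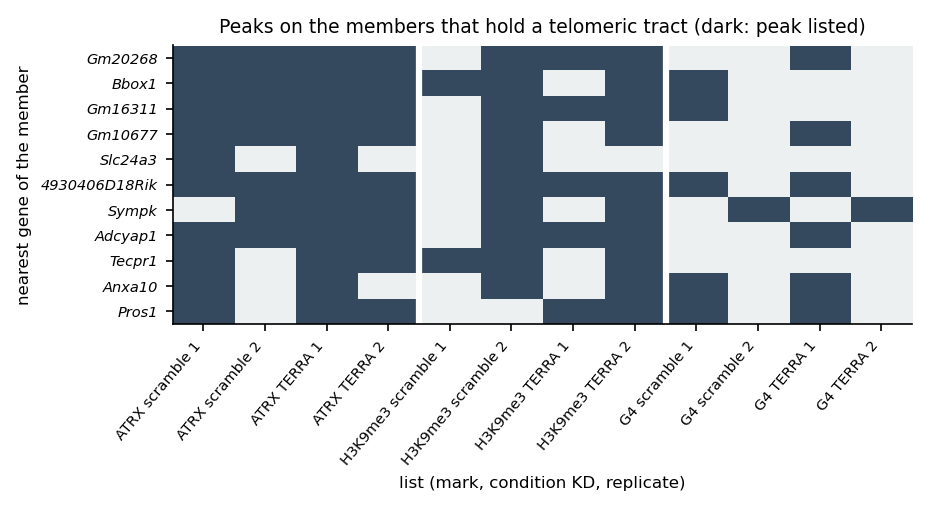
The 11 members on telomeric tracts (rows, by nearest gene) and the 12 ChIP-seq lists (columns, by mark, condition and replicate), with dark cells where a peak overlaps the member. The ATRX columns are mostly dark in both conditions, 10 and 7 of 11 for scramble KD against 11 and 9 for TERRA KD.

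Apart from these tracts, the 201-bp windows around the members' summits lay between lost and shared sites in base composition. The median GC content was 51.2%, against 47.8% in lost sites, 54.2% in shared sites and 52.7% in all peaks of TERRA KD replicate 1. The mean number of CpG dinucleotides was 4.02, against 2.83, 7.09 and 6.10. Repeats masked in the assembly covered a mean of 27.5% of a window, against 22.0%, 25.7% and 26.0%. Windows masked over their whole length made up 6.57% of members and 10.9% of shared sites.

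Motifs were searched as fixed letters on both strands, and a match is no evidence of binding. A G4 motif, 4 runs of at least 3 guanines parted by 1 to 7 bases, was in 251 member windows (5.33%), against 4.49% of lost sites, 7.12% of shared sites and 6.52% of all peaks of replicate 1. A CTCF motif (CCNNNAG and, after any 2 bases, GGC) was in 388 windows (8.25%), against 4.91%, 9.18% and 8.74%. The AP-1 site (TGANTCA), bound by FOS and JUN proteins, was in 7.48% of members, 6.02% of lost sites, 5.71% of shared sites and 6.04% of all peaks. The octamer (ATTTGCAT) was in 59 windows (1.25%), against 2.21%, 1.92% and 1.76%, and the SOX site (CATTGTT) in 2.76% against 4.95%, 3.02% and 3.05%. Members therefore held the CTCF letters nearly as often as shared sites, more often than lost sites, and the octamer letters less often than each of the other sets, by counts of single windows that were not tested. The TEAD letters GGAATG were in 12.1% (10.9%, 10.8% and 11.1% in the same order), the KLF letters GGGTGTGG in 3.93% (2.89%, 3.36% and 3.51%), and the letters TGCACAC of ZSCAN4, a factor of the two-cell embryo, in 4.82% (4.38%, 3.53% and 3.89%).

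Few gene promoters had a member. A member lay within 1 kb of the TSS of 325 of 26182 annotated genes (1.24%) and of 257 of 21000 protein-coding genes (1.22%), while a lost site lay that near to 130 genes (0.497%). Within 50 kb of a member lay the TSS of 6566 genes (25.1%). Of the 325 genes, 153 (47.1%) had a scramble KD ATAC peak within 1 kb of the same TSS in both lists, 44 in exactly 1 list and 128 (39.4%) in neither. Of all genes, 58.2% had such a peak in both lists. More of the 325 starts thus had a control peak nearby, in 1 or both lists, than had none.

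Ordered by the worse of their ranks in the 2 TERRA KD libraries, the first 20 members within 1 kb of a protein-coding TSS fell into those kinds. At 7 of the 20, no scramble KD peak lay within 1 kb of the TSS. The strongest was on the TSS of Ppp1r32, a regulatory subunit of protein phosphatase 1, with a pileup of 13 in TERRA KD replicate 1 and 18 in replicate 2 and a −log10 p of 10.8 and 15.7. The nearest scramble KD peak was 2887 bp away, and the window, printed above, held a CTCF motif. The member on the TSS of Crybg2, a gene of the beta/gamma-crystallin family, had pileups of 14 and 17, with −log10 p 8.70 and 11.8. Prodh2, which encodes a hydroxyproline dehydrogenase, had a member 28 bp past the TSS, in a coding exon, with pileups of 15 and 22 and a −log10 p of 8.60 and 13. At Vezf1, a zinc finger transcription factor, the member lay 256 bp before the TSS with pileups of 10 and 14. Trp53i11 (19 and 25), Ubxn10 (9 and 12) and Ttc23l (8 and 12) completed the 7. These were the named promoters with open chromatin listed only after knockdown.

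At the other 13, both scramble KD lists had a peak within 1 kb of the TSS. Egln2, a prolyl hydroxylase of oxygen sensing, had a member 329 bp into the gene with pileups of 18 and 25 and a −log10 p of 8.11 and 12.3, and the nearest scramble KD peak was 347 bp off. Irx6, an Iroquois homeobox gene, had pileups of 19 and 23. Other members of this kind without a joined partner lay at Tada2b, an adaptor of the SAGA coactivator, Syt6, a synaptotagmin, Coa7, an assembly factor of cytochrome c oxidase, and Zfp777. In 6 of the 13 the replicate 2 partner itself reached a scramble KD peak. At Numb, an inhibitor of Notch signaling, the member had a pileup of 17 and its partner 106, which was the main promoter peak. The others of the 6 were Acyp1 (pileup 13 and 18), Slc12a4 (21 and 60), Flii (18 and 23), Stum (11 and 16) and Kif3b (11 and 22). For these 6 the replicate 2 evidence did not come from a separate site.

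None of the 20 promoter members had an ATRX or H3K9me3 peak in any of the 8 lists. Scramble KD replicates 1 and 2 had G4 peaks on 10 and 15 of the 20, and the TERRA KD replicates on 11 and 4. The 2 TERRA KD values stood on either side of the lower scramble KD value, so the groups overlapped. The member at Ppp1r32 had a G4 peak in all 4 lists, and that at Egln2, whose window holds 2 G4 motifs, only in scramble KD replicate 1.

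Over all members the highest ranks went to sites away from promoters. The member 27418 bp before the lncRNA 4930571O06Rik had a pileup of 13 and 21, a −log10 p of 11.6 and 18.9, and no scramble KD peak within 24708 bp. The member 21960 bp before Itga5, the integrin alpha 5 gene, had pileups of 12 and 16 and held the octamer printed above. Those in an intron of Ankrd36 (15 and 15) and 29207 bp downstream of the TSS of Wnt9a, a Wnt ligand gene (12 and 18), followed with the members nearest Olfr31, Timd2, D430041D05Rik, Rnf216 and Gm7889. Of the 10 best-ranked members, Ppp1r32 included, 5 had repeats over at least 50% of the window, none had a partner on a scramble KD peak, and 1, nearest Gm7889, carried ATRX, in TERRA KD replicate 1.

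The members were spread over many genes. They had 3912 distinct nearest genes, 116 of them nearest to at least 3 members, and 2343 members lay within a gene body. Of 27268 stretches of 100000 bp, 3402 held 1 member, 534 held 2, 69 held 3 and 9 held 4. Among those with 4 were the stretch chr16:91500001-91600000, with the interferon receptor genes Ifnar1 and Ifngr2 (4 of 11 ATAC peaks of replicate 1, with 6 shared and 0 lost sites), and chr5:66200001-66300000, with Apbb2 and Nsun7 (4 of 9). Slc39a11, a zinc transporter gene, had the most members in its body, 6 of 24 peaks. Arhgef10l had 5 of 17, Exoc4, an exocyst subunit gene, 5 of 28, and Msi2, an RNA-binding protein gene, 5 of 43. Local groups of this size were counted without a test.

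Genes of the pathways chosen for these cells rarely had a member at the TSS. Against the background of 1.24%, members lay within 1 kb of 1 of 23 genes of the ATRX, DAXX and H3K9 methylation list, 1 of 21 germline genes, 2 of 26 interferon and nucleic acid sensing genes, and none of the genes in the other 15 lists. The 4 genes were Smarca5, Mov10l1, Cxcl10 and Mx2. Smarca5, the ISWI remodeling ATPase, had a member in an intron with pileups of 20 and 24, an ATRX peak in TERRA KD replicate 2, and a promoter that was open in both scramble KD lists. Mov10l1, a helicase of the piRNA pathway in germ cells, had a member on its TSS with pileups of 7 and 8 and no scramble KD peak within 27521 bp. Cxcl10, an interferon-induced chemokine, had pileups of 5 and 8, and Mx2, an interferon-induced GTPase annotated here as a transcribed pseudogene, 8 and 6, and neither had a scramble KD peak within 12690 bp. The −log10 p was 5.15 and 5.57 at Mov10l1, 3.35 and 5.57 at Cxcl10, and 6.14 and 3.68 at Mx2, so that of the 3 only Mov10l1 exceeded the members' medians in both libraries.

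Within 50 kb the lists differed more, with a background of 25.1% of genes for members and of 14.1% for lost sites. A member lay that near to 14 of 27 immediate early and stress genes (51.9%), including Fos, Fosb, Jun, Junb, Egr1 and Ddit3, and to 11 of 26 naive pluripotency genes (42.3%), including Pou5f1, Esrrb, Prdm14, Tfcp2l1 and Dppa3. The ATRX, DAXX and H3K9 methylation list had 9 of 23 (39.1%), trophectoderm and placenta 5 of 15 (33.3%), and interferon 8 of 26 (30.8%). The genes named in the study had 4 of 14 (28.6%: Bcl6, Flcn, Igfbp4 and Nfatc4), the neural list 6 of 22 (27.3%), p53 targets 6 of 23 (26.1%), germline genes 5 of 21 (23.8%) and mesoderm and endoderm 6 of 26 (23.1%). At the low end were formative and primed pluripotency with 3 of 15, imprinted genes with 9 of 46 (19.6%), two-cell stage genes with 3 of 17 (17.6%), shelterin and telomerase with 1 of 18 (5.56%, Terf2ip) and Hox genes with 2 of 39 (5.13%). Lost sites were near 10 of the 27 immediate early and stress genes, 8 of the 26 naive pluripotency genes and 15 of the 39 Hox genes. Neighbors within a cluster, such as Hox genes, share their members. Among the marker lists, 6 of 14 embryonic stem cell genes (42.9%), 1 of 10 fibroblast genes and 0 of 6 two-cell-like genes had a member within 50 kb. The nearness of an ATAC site to a gene says nothing of the gene's expression, which these files do not measure.

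ATRX peaks on the members were more frequent in the TERRA KD lists. In scramble KD replicates 1 and 2, 56 members (1.19%, Wilson 95% interval 0.916% to 1.54%) and 24 (0.509%, 0.342% to 0.757%) had an ATRX peak. In TERRA KD replicates 1 and 2 there were 281 (5.96%, 5.32% to 6.67%) and 143 (3.03%, 2.58% to 3.56%). The intervals cover counting error only. Both TERRA KD shares stood above both scramble KD shares, with a mean difference of 3.65 percentage points (exact permutation test over 2 and 2 libraries, two-sided p = 0.33, the smallest this design can give). Without TERRA KD replicate 1, the library with the most ATRX peaks, the difference was 2.19 points. The same order held over all peaks of TERRA KD replicate 1, with 0.783% and 0.467% for scramble KD against 7.29% and 3.37% for TERRA KD. The members' share was above this background, which includes the members, in both scramble KD libraries and below it in both TERRA KD libraries. In scramble KD replicate 2, 7 of the 24 members with ATRX lay on telomeric tracts. The difference was 0.530 points with ATRX peaks of −log10 p at least 5 and 1.09 points with equal numbers of top-ranked ATRX peaks per library.

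Set against other sites library by library, by an overlap of at least 1 bp, ATRX gave the members no steady excess over shared sites. The log2 ratio of the members' share to that of the shared sites was 0.49 and 0.30 with scramble KD, against −0.50 and −0.28 with TERRA KD, a mean of 0.0030 (exact sign-flip test over 4 libraries, two-sided p = 1.0). The difference between conditions in that ratio was −0.79 (exact permutation test, p = 0.33). It was −0.079 with equal numbers of top-ranked ATRX peaks per library and 0.088 with ATRX peaks of −log10 p at least 5 (exact permutation tests, p = 1.0 for each), so its direction changed with that threshold. Shared sites were longer than members, with medians of 655 and 339 bp. Where ATRX peaks covered at least 50% of the site, the mean ratio to shared sites was 0.40 (exact sign-flip test, p = 0.13). At the summit base alone it was 0.26 (exact sign-flip test, p = 0.38). Against lost sites the log2 ratio was 0.80, 0.043, 0.97 and 0.41, a mean of 0.56. It was positive in 4 of 4 libraries, and its p of 0.13 was the smallest that an exact sign-flip test over 4 libraries allows. The lowest ratio, 0.043 in scramble KD replicate 2, rested on 24 members (0.509%) against 13 lost sites (0.494%). Of those 24 members 7 lay on telomeric tracts, which no lost site held. The ratio without tract members was not computed, so its sign in that library is uncertain. With ATRX peaks of −log10 p at least 5 the mean ratio to lost sites was 0.13 (exact sign-flip test, p = 1.0).

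**Figure D4:**
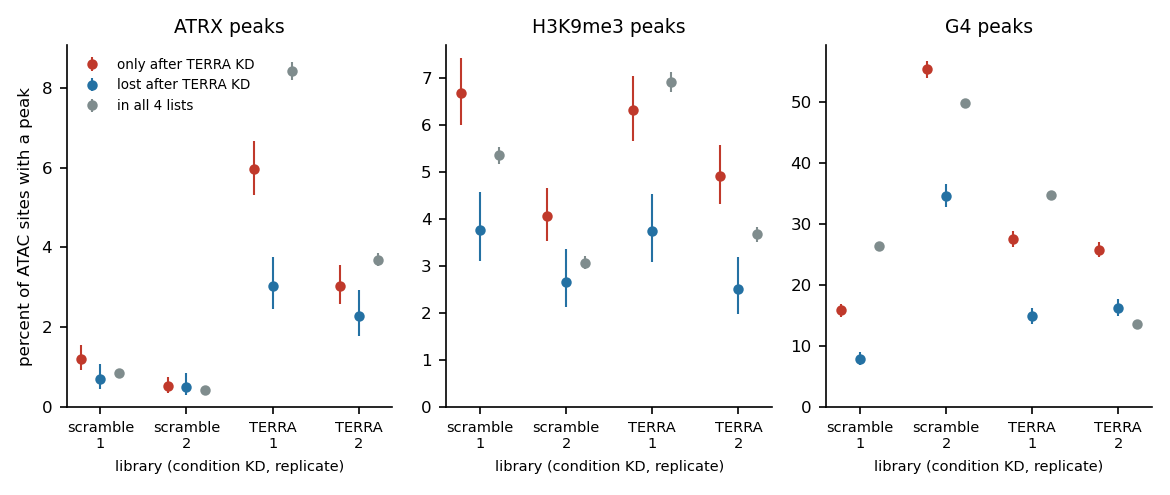
Percent of ATAC sites overlapped by a peak of each mark (vertical axes, from 0, scaled per panel) in each ChIP-seq library, for members (red), lost sites (blue) and shared sites (grey), with Wilson 95% intervals. ATRX shares were higher in both TERRA KD libraries for all 3 sets. Members exceeded lost sites in all 12 libraries, but only by 0.509% against 0.494% for ATRX in scramble KD replicate 2. TERRA KD replicate 1 peaks in no other ATAC list, not shown, also exceeded lost sites except for ATRX in scramble KD replicate 1.

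H3K9me3 on the members did not separate the conditions. The mark was listed on 314 members (6.66%) and 191 (4.05%) with scramble KD, against 297 (6.30%) and 231 (4.90%) with TERRA KD, so the groups overlapped. The mean difference was 0.244 points (exact permutation test, p = 1.0), with −0.361 between the replicates numbered 1 and 0.849 between those numbered 2. The background over all peaks of TERRA KD replicate 1 was 5.46% and 3.17% for scramble KD against 6.51% and 3.85% for TERRA KD. The log2 ratio to shared sites was 0.32, 0.41, −0.13 and 0.42, a mean of 0.25 (exact sign-flip test, p = 0.25). The mean ratio was 0.56 with H3K9me3 peaks of −log10 p at least 5, 0.62 where peaks covered 50% of the site and 0.60 at the summit base (exact sign-flip tests, p = 0.13 for each). Within 500 bp the mean ratio was 0.073 (exact sign-flip test, p = 0.63). The difference between conditions in the ratio was −0.22 (exact permutation test, p = 1.0). Against lost sites the ratio was 0.82, 0.61, 0.76 and 0.97, a mean of 0.79 (exact sign-flip test, p = 0.13, positive in 4 of 4 libraries).

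G4 peaks were the mark most often found on members, and had the widest range between libraries in percentage points. They lay on 744 members (15.8%) and 2607 (55.3%) with scramble KD, against 1295 (27.5%) and 1213 (25.7%) with TERRA KD. Both TERRA KD values fell between the scramble KD values, and the mean difference was −8.94 points (exact permutation test, p = 1.0). Without scramble KD replicate 2, whose list is the longest, the difference was 10.8 points, the opposite sign. The background over all peaks of TERRA KD replicate 1 was 22.9% and 51.1% for scramble KD against 32.3% and 17.5% for TERRA KD. The log2 ratio to shared sites was −0.74, 0.15, −0.34 and 0.92, a mean of −0.0016 (exact sign-flip test, p = 1.0), with a difference between conditions of 0.59 (exact permutation test, p = 0.667). Against lost sites it was 1.00, 0.68, 0.89 and 0.66, a mean of 0.81 (exact sign-flip test, p = 0.13, positive in 4 of 4 libraries). A direction for G4 on the members could thus not be given from these 4 libraries. The excess over lost sites was not particular to members. The 7362 TERRA KD replicate 1 peaks in no other ATAC list had G4 on 14.3%, 55.5%, 26.3% and 29.7%. Lost sites had 7.87%, 34.6%, 14.8% and 16.2%. H3K9me3 on those unreplicated peaks also exceeded lost sites in each library, and ATRX in each but scramble KD replicate 1.

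Many members carried none of the marks. No peak of any of the 12 ChIP-seq lists lay on 1631 members (34.6%), while 2848 (60.4%) had a G4 peak in at least 1 list, 467 (9.91%) an H3K9me3 peak and 423 (8.98%) an ATRX peak. For ATRX, 8 members had a peak in all 4 lists (0.170%, background 0.121%), 27 in both TERRA KD lists and neither scramble KD list (0.573%, background 0.52%), 1 in the opposite pattern (0.021%, background 0.00231%) and 4290 in none (91.0%, background 89.4%). For H3K9me3 the numbers were 79 in all 4 (1.68%, background 0.975%), 13 in TERRA KD only (0.276%, background 0.324%), 12 in scramble KD only (0.255%, background 0.141%) and 4246 in none (90.1%, background 90.1%). For G4 they were 343 (7.28%, background 5.6%), 14 (0.297%, background 0.304%), 65 (1.38%, background 2.53%) and 1865 (39.6%, background 40.8%). ATRX listed only after knockdown therefore coincided with ATAC sites listed only after knockdown at about the rate of ATAC peaks in general.

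The 27 members with ATRX in both TERRA KD lists alone lay mostly on repeats, and most had H3K9me3. Their windows had a median of 94.0% masked bases and a median GC content of 55.2%, against 12.4% and 51.2% over all members. H3K9me3 was listed in all 4 libraries on 13 of the 27, in at least 1 on 21 and in none on 6, and 21 had a G4 peak in at least 1 list. The best-ranked was the intergenic member nearest Kcnf1, a potassium channel subunit gene, with pileups of 10 and 13 and a −log10 p of 8.23 and 10.7. It had H3K9me3 in all 4 lists and G4 in the scramble KD lists only, with repeats over 94.0% of its window. Next came an intron of Gm3629 (8 and 11), an intron of Zfp663 (10 and 18), and the members nearest Pde3a, Megf11, Gm4981, Astx5 and Ssbp4. A coding exon of Tecr, an enzyme of fatty acid elongation, and the 5S rRNA gene n-R5s138 closed the list of 10. Reads of n-R5s138 can come from any of its near-identical copies, so its values are uncertain.

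The members with H3K9me3 in all 4 lists, 13 of which are among those 27, were also mostly repeats. Of the 77 on chromosomes, 74.0% were intergenic and 42.9% had fully masked windows, with a median masked share of 94.0% and a median GC content of 52.7%. Kcnf1 again ranked first, followed by introns of Letm1, a mitochondrial cation exchanger gene (pileup 9 and 14), and the intergenic members nearest Gpr135 (13 and 16) and Plekhf2 (13 and 15). The others were nearest Gm3629, 1600023N17Rik, Zfp458, Gm5784, Dab1 and H2bl1. ATRX peaks lay on 11.7%, 5.19%, 51.9% and 29.9% of the 77 in scramble KD 1 and 2 and TERRA KD 1 and 2. On the 4242 members with no H3K9me3 peak the shares were 0.542%, 0.212%, 4.17% and 1.96%. In each of the 4 ATRX libraries, ATRX was thus more often listed on members with H3K9me3 than on those without. The ATRX and H3K9me3 lists of the same condition and replicate had the same input tag count, and its part in this was not tested.

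G4 peaks in both scramble KD lists and neither TERRA KD list lay on 65 members. Of these, 18.5% were in promoters and 17 stood within 1 kb of a TSS, with a median GC content of 56.2%. The best-ranked were in an intron of Rnf216, a ubiquitin ligase gene (pileup 11 and 17), at Kcnf1, and at Flii, an actin-binding protein of the gelsolin family (18 and 23). Mat2a, the enzyme that makes S-adenosylmethionine, was the nearest gene of another, 27656 bp away. Others of the first 10 were nearest Gm34507, Gm26721, C030006K11Rik, Srrd and Gm45916. A G4 motif was in 10.8% of the windows on chromosomes with this pattern, against 5.33% of all member windows, and in none of the 10 best-ranked.

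G4 peaks went with GC content in every library, and H3K9me3 with masked repeats. G4 peaks lay on 5.07%, 20.5%, 8.79% and 11.8% of the 887 members with a GC content under 45%, in the order scramble KD 1 and 2 and TERRA KD 1 and 2. On the 2464 members of 45% to 55% the shares were 9.38%, 49.9%, 18.2% and 19.8%, and on the 1354 members of at least 55% they were 34.3%, 88.0%, 56.6% and 45.6%. The 251 members with a G4 motif had 35.1%, 72.5%, 49.8% and 36.7%, against 14.7%, 54.4%, 26.2% and 25.1% of the 4454 without. H3K9me3 followed masked repeats, with 34.3%, 27.2%, 35.3% and 26.9% of the 309 fully masked members and 2.68%, 0.894%, 1.98% and 1.4% of the 1566 unmasked members. ATRX was on 3.24%, 1.62%, 14.2% and 10.7% of the fully masked and on 0.830%, 0.192%, 5.11% and 2.75% of the unmasked members. In each of these classes scramble KD replicate 2 had the highest G4 share and TERRA KD replicate 1 the highest ATRX share.

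**Figure D5:**
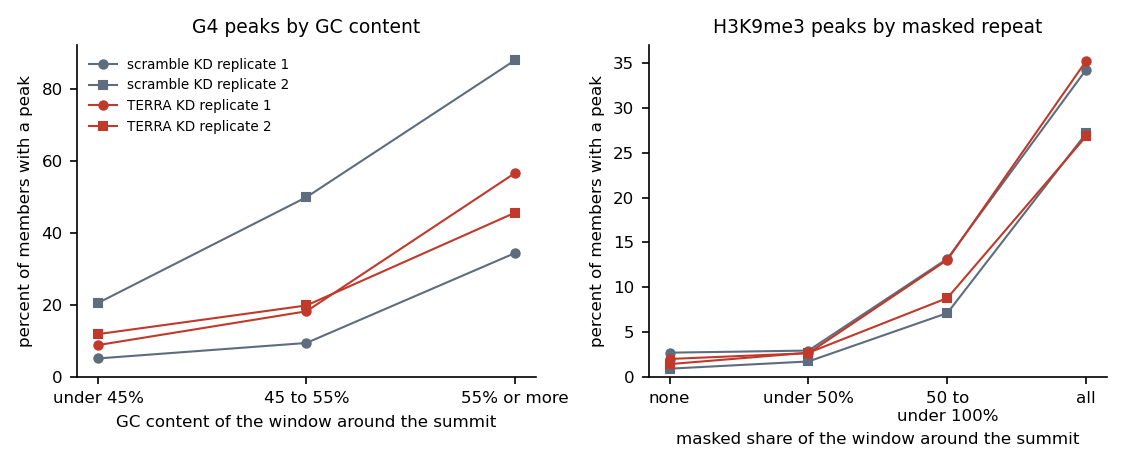
Percent of members with a G4 peak by GC content of the 201-bp window (left) and with an H3K9me3 peak by masked share of the window (right), 1 line per library, scramble KD in grey and TERRA KD in red. G4 shares were higher at higher GC content in each library, up to 88.0% in scramble KD replicate 2, and H3K9me3 shares were highest in fully masked windows, at 26.9% to 35.3%.

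The marks also differed by position. Coding exons had the highest G4 shares, 34.3%, 87.8%, 58.7% and 46.5%, and promoters had 32.2%, 76.0%, 48.0% and 22.2%. Introns had 14.1%, 54.5%, 24.9% and 24.1% and intergenic members 13.7%, 50.3%, 24.1% and 24.7%. H3K9me3 was rare in coding exons and promoters. It lay on 10.7%, 6.12%, 10.4% and 7.53% of intergenic members but 1, 1, 0 and 0 of the 213 coding exon members and 2, 2, 1 and 3 of the 171 promoter members. In the 136 other exon members the shares were 3.68%, 1.47%, 3.68% and 2.94%. ATRX lay on 3, 0, 12 and 11 coding exon members and on 1, 0, 6 and 3 promoter members. The 388 members with a CTCF motif had ATRX on 0.258%, 0%, 5.93% and 2.58%.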

How the data were processed

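ATAC-seq and ChIP-seq libraries of ATRX, H3K9me3 and G4 were analysed from the 16 peak lists deposited by the authors, 1 per library, on GRCm38/mm10. Per the labels and methods, reads were trimmed with Trim Galore 0.5.0, aligned with Bowtie2 2.3.4.1 and deduplicated with SAMtools 1.9, and peaks were called per library at p 0.01 with MACS 1.4.3 (ATRX, H3K9me3), 1.4.2 (G4) and 2.2.7.1 (ATAC, without input). The deposited ChIP-seq lists give tag counts, a score of −10 × log10 p, fold enrichment and FDR in percent. The deposited ATAC lists give the pileup signal, −log10 p and −log10 q, and fold enrichment. All lists are thresholded, so a region without a peak is not shown to lack signal. The lists also differ in length, though a longer list did not always overlap more members. For H3K9me3 in scramble KD, 26414 peaks of replicate 1 lay on 314 members and 76213 peaks of replicate 2 on 191. The source field of the ATAC scramble libraries names the TERRA knockdown, and their groups were taken from the knockdown field, with which the titles match.

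Overlaps, distances to RefSeq genes and motif searches were computed in Python 3.11.15 with numpy 2.4.6, pandas 2.3.3 and scipy 1.17.1, and the scripts were tested on simulated data. The members, gene lists and tests were chosen with earlier results of these data known. Named genes were the 20 best-ranked members within 1 kb of a protein-coding TSS, the 10 best overall and for each of 3 mark patterns, and members within 1 kb of a listed gene. Of the named genes, 1 is not reported here. Conditions were compared over libraries with exact permutation tests, which with 2 replicates cannot reach 0.05. The tests take the libraries as independent, while both G4 lists of a condition had the same input tag count. The ATRX and H3K9me3 lists of the same condition and replicate also had the same input tag count. Nothing in the labels says whether replicates were separate cultures, so p-values measure only the spread between these libraries. Alternatives changed the peak strength, overlap, distance, replicate, mark threshold, chromosomes and TSS window. The use of the summit base alone, and of partners on no peak of the other condition, were alternatives chosen after seeing the data.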

Additional observations from a re-analysis of the deposited data

How the results depend on the processing

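The number of members was 3986 with −log10 p of at least 3, 3865 with 50% overlap between the replicates, 4602 when counted from replicate 2, 3992 when at least 500 bp from scramble KD peaks, 4702 on autosomes and X, and 4362 with at least 1 partner on no scramble KD peak (for 4360 it is the partner with the values given above). Of 194 alternative values, 171 kept their direction and their side of the threshold, among them all log2 ratios of members to lost sites, though that of ATRX had an exact p of up to 1.0. No p could pass 0.05 in this design, so that only directions were at stake. The ATRX log2 ratio of members to shared sites, 0.0030, was −0.0035 with −log10 p of at least 3, −0.047 with 50% overlap, −0.034 counted from replicate 2, and −0.27 with ATRX peaks of −log10 p at least 5, and −0.16 to 0.17 when a library was left out. That ATRX ratio was 0.40 where ATRX peaks covered at least 50% of the site and 0.26 at the summit base alone. The same ratio for G4, −0.0016, was 0.015, 0.0033 (replicate 2), 0.26 (mark threshold), 0.092 (50% of the member covered), 0.066 (mark within 500 bp), 0.13 (the same number of top-ranked peaks per library) and 0.074 (summit base alone), and −0.31 to 0.24 when a library was left out. With ATRX peaks of −log10 p at least 5, the difference between conditions in the ATRX ratio was 0.088, against −0.90 to −0.68 when a library was left out. Leaving out a library gave −1.06 to 1.55 points for the H3K9me3 difference, −0.49 to 0.058 for the change of its ratio, −28.7 to 10.8 points for the G4 difference, −0.041 to 1.21 for the change of its ratio, and 2.19 to 5.11 points for the ATRX difference. With the same number of top-ranked ATRX peaks per library the ATRX difference was 1.09 points, and 0.530 at −log10 p of at least 5. The causes were not tested. The share of members near a TSS was 14.5% within 5000 bp and 5.23% for protein-coding genes. With the replicate number as a block, the differences stayed at 3.65, 0.244 and −8.94 points and −0.79, −0.22 and 0.59 for the ratios, with exact p of 0.5 to 1.0 (smallest possible 0.5). A correlation between same-numbered libraries over stretches of 1000000 bp, computed for pairing, was 0.049 (ATRX), 0.10 (ATAC), 0.29 (H3K9me3) and 0.56 (G4). It rests on too few pairs to establish pairing. Nor does it measure how alike the lists are, since 56314 of the 86535 ATAC peaks of TERRA KD replicate 1 were shared sites. Some libraries were thin, with 2961038 tags at the least, and how far this limited the listing of weak peaks was not tested.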
